A study of Mus musculus with 34 samples.

Results

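The 9 genes *Mbp*, *Mobp*, *Cnp*, *Mal*, *Cldn11*, *Mag*, *Mog*, *Opalin* and *Ermn* encode proteins of central myelin or of the oligodendrocytes that make it. They were taken by name. All 9 were among the 16389 genes measured, and all 9 passed the minimum level and stood among the 14710 genes tested. RNA was sequenced from 34 libraries of C57BL/6 mouse brain, each from 1 of 3 microdissected regions, which were cortex, hippocampus, and thalamus with the adjoining striatum. WT CON mice were untreated wildtype controls (labelled as vehicle). GFP-BM CON mice received 1000 cGy of whole-body irradiation and then bone marrow from CAG-EGFP donors, in which a broadly active promoter drives the fluorescent protein. GFP-BM REPOP mice received the same irradiation and marrow and, 3.5 months later, PLX3397 at 600 ppm in the diet for 14 days, followed by 6 months on control diet. PLX3397 inhibits the receptor CSF1R, on which microglia depend, so that the emptied brain can be refilled by marrow-derived myeloid cells. Mice were 4 months old at irradiation. Since head and body were both irradiated, the 2 treated groups share irradiation and donor marrow, and the data hold no group with PLX3397 alone. Each group of 1 treatment in 1 region had 4 libraries, except WT CON cortex and GFP-BM CON thalamus with 3.

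Myelin is the multilayered membrane that oligodendrocytes wrap around axons, and it speeds conduction and feeds the axon. Its membrane is held in tight layers by basic proteins on the cytoplasmic faces, while adhesion proteins sit at the face against the axon and at the outer surface, and tight junctions seal the layers. In mature oligodendrocytes the genes for these proteins are switched on together, largely by the transcription factors SOX10 and MYRF, and their RNA is far more abundant in white matter tracts than in grey matter. The thalamus and striatum are crossed by many myelinated bundles, and a dissected cortex or hippocampus may carry more or less of the white matter beneath it. The comparisons below therefore set differences between regions apart from differences between treatments within a region.

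The libraries held 17085018 to 26010509 reads each (median 21367227), as recovered from the deposited FPKM values, so that even the least covered member, *Opalin*, rested on 176 to 918 reads, and *Mbp* on 21261 to 142692. FPKM are reads scaled by the length of the gene and the depth of the library, so levels of genes of unlike length can be set side by side. The scaling does not take GC content into account. Thalamus markers were higher in the thalamus groups (means of 4.07 to 4.29) than elsewhere (1.66 to 2.73), but 3 hippocampus libraries were low in hippocampus markers: these averaged -0.11 on the log2(FPKM + 0.1) scale in WT CON replicate 2 and 0.05 and 0.73 in GFP-BM REPOP replicates 1 and 4, against 2.54 to 3.79 in the other 9. GFP-BM REPOP replicate 4 also had the highest striatum markers of the hippocampus libraries (6.79). These markers were also high in WT CON hippocampus replicates 1, 2 and 3 (4.68, 5.26 and 5.23), against 2.05 in replicate 4. In GFP-BM CON hippocampus they were 2.62 to 2.87, so these 2 groups differed in striatum markers. The thalamus groups had means of 4.25 to 4.69. Fold changes that involve the hippocampus are therefore given with and without the 3 libraries low in hippocampus markers. Leaving them out keeps replicates 1, 3 and 4 in WT CON and only replicates 2 and 3 in GFP-BM REPOP. Member counts from fits that leave out libraries stand without the share of all genes. They show how the calls move and are not a result about the members. Levels, ratios and shares of spread are given over all libraries. Among Schwann cell genes, whose cells make the myelin of peripheral nerves, *Prx* was at most 0.91 FPKM and *Ncmap* at most 1.2. The libraries also differed in the level of GC-rich against GC-poor genes, a measure that is given with *Ermn*, the gene it moved with most.

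The sequences just before the start of 4 of the genes are shown because these genes stand at the ends of the patterns described here: *Mog* followed the rest of the set closely, *Mal* and *Opalin* had smaller differences between regions, and *Ermn* followed a course of its own. They are the 250 bases before the RefSeq start site in build GRCm38.p6, written 5′ to 3′ on the strand of the gene, with capitals marking each match to ACAANG, the core letters bound by SOX factors, on either strand.
Mog, chr17:37023399-37023648, minus strand: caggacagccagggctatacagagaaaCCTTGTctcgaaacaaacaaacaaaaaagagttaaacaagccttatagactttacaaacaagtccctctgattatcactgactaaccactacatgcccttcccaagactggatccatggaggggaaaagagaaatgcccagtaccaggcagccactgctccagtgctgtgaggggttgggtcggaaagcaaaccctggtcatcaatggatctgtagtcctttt
Mal, chr2:127656696-127656945, minus strand: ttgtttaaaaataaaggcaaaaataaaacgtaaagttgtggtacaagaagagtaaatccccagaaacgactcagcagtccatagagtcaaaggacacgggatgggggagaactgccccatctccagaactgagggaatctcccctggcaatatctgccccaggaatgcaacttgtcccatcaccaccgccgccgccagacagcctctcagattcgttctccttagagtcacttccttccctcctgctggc
Opalin, chr19:41077114-41077363, minus strand: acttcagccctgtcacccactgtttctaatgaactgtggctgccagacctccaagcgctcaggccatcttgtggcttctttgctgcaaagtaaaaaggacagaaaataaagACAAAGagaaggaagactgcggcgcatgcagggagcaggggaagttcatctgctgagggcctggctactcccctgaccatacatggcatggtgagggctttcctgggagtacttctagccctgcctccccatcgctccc
Ermn, chr2:58052865-58053114, minus strand: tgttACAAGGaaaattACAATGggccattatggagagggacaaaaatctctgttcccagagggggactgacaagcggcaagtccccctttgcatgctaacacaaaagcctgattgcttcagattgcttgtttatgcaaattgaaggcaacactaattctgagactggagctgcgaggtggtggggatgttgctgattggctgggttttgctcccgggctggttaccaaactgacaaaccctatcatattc
A match is a description of letters and not a bound site. In these windows the match of *Mog* began at -223 from the start site and that of *Opalin* at -139. *Ermn* had 2 matches, at -246 and -234, and *Mal* had none. Of the 8 members with a window (none was used for *Mbp*), 6 held at least 1 match, against 36.3% of 32851 windows of the same length across the genome. Members are counted as genes with a match in any of their 10 windows, while the shares here and below are of single windows. *Mobp* held 6, *Cnp* 1, and *Cldn11* none. The letters CTGGNAC, the core of the MYRF motif, stood on either strand in the windows of *Mog*, *Mag* and *Cnp*, against 16.1% of all windows, and TATAAA stood in none of the 8, against 12.4%.

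The 9 genes lie on 8 chromosomes, and *Ermn* and *Mal*, both on chromosome 2, are far apart on it. In build GRCm38.p6, *Mbp* (Entrez 17196) spans chr18:82475091-82585637 on the plus strand, *Mobp* (17433) chr9:120149742-120181488, *Cnp* (12799) chr11:100574909-100591875 and *Cldn11* (18417) chr3:31149920-31164326 on the same strand. *Mal* (17153) spans chr2:127633226-127656695 on the minus strand, as do *Ermn* (77767) at chr2:58045115-58052864, *Mag* (17136) at chr7:30899175-30914922, *Mog* (17441) at chr17:37010740-37023398 and *Opalin* (226115) at chr19:41061959-41077113. Each value is the level of a whole gene, with all its transcript forms counted as 1.

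*Mbp*, the myelin basic protein that binds the cytoplasmic membrane faces together, was the most abundant member in each of the 9 groups. In the cortex its level was 408, 367 and 339 FPKM in WT CON, 346, 329, 303 and 323 in GFP-BM CON, and 378, 374, 316 and 265 in GFP-BM REPOP. In the thalamus it was 566, 1019.9, 697 and 765 in WT CON, 619, 580.4 and 654 in GFP-BM CON, and 629, 561, 566 and 645 in GFP-BM REPOP. Every thalamus library lay above every cortex library, and WT CON replicate 2 stood above the other thalamus libraries. In the hippocampus the values were 585, 305, 364 and 291 in WT CON, 351, 574, 354 and 1040.2 in GFP-BM CON, and 175, 589, 770.1 and 531 in GFP-BM REPOP. The hippocampus libraries thus ranged from below every cortex library to the highest value of all 34, and the 3 treatments overlapped there.

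The spread within the hippocampus was shared by the set. The ratio of the highest to the lowest library was 5.95 for *Mbp* in the hippocampus, against 1.54 in the cortex and 1.82 in the thalamus, and over the 9 genes it ran from 4.78 for *Cnp* to 8.58 for *Ermn*. The lowest hippocampus library for 8 of the genes was GFP-BM REPOP replicate 1 and the highest was GFP-BM CON replicate 4. *Ermn*, lowest in WT CON replicate 4 and highest in GFP-BM CON replicate 2, was the exception. In cortex and thalamus the ratio stayed between 1.32 and 1.88 for 8 genes, and only *Ermn* in the thalamus left that range, at 11. *Mbp* and *Cnp*, which encodes a cyclic nucleotide phosphodiesterase of the cytoplasmic channels of myelin, were first and second by mean level in all 9 groups. *Mog*, *Opalin* and *Ermn* were the last 3 in all 9 groups. *Mag*, *Cldn11*, *Mal* and *Mobp* lay between them in an order that changed from group to group.

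**Figure D1:**
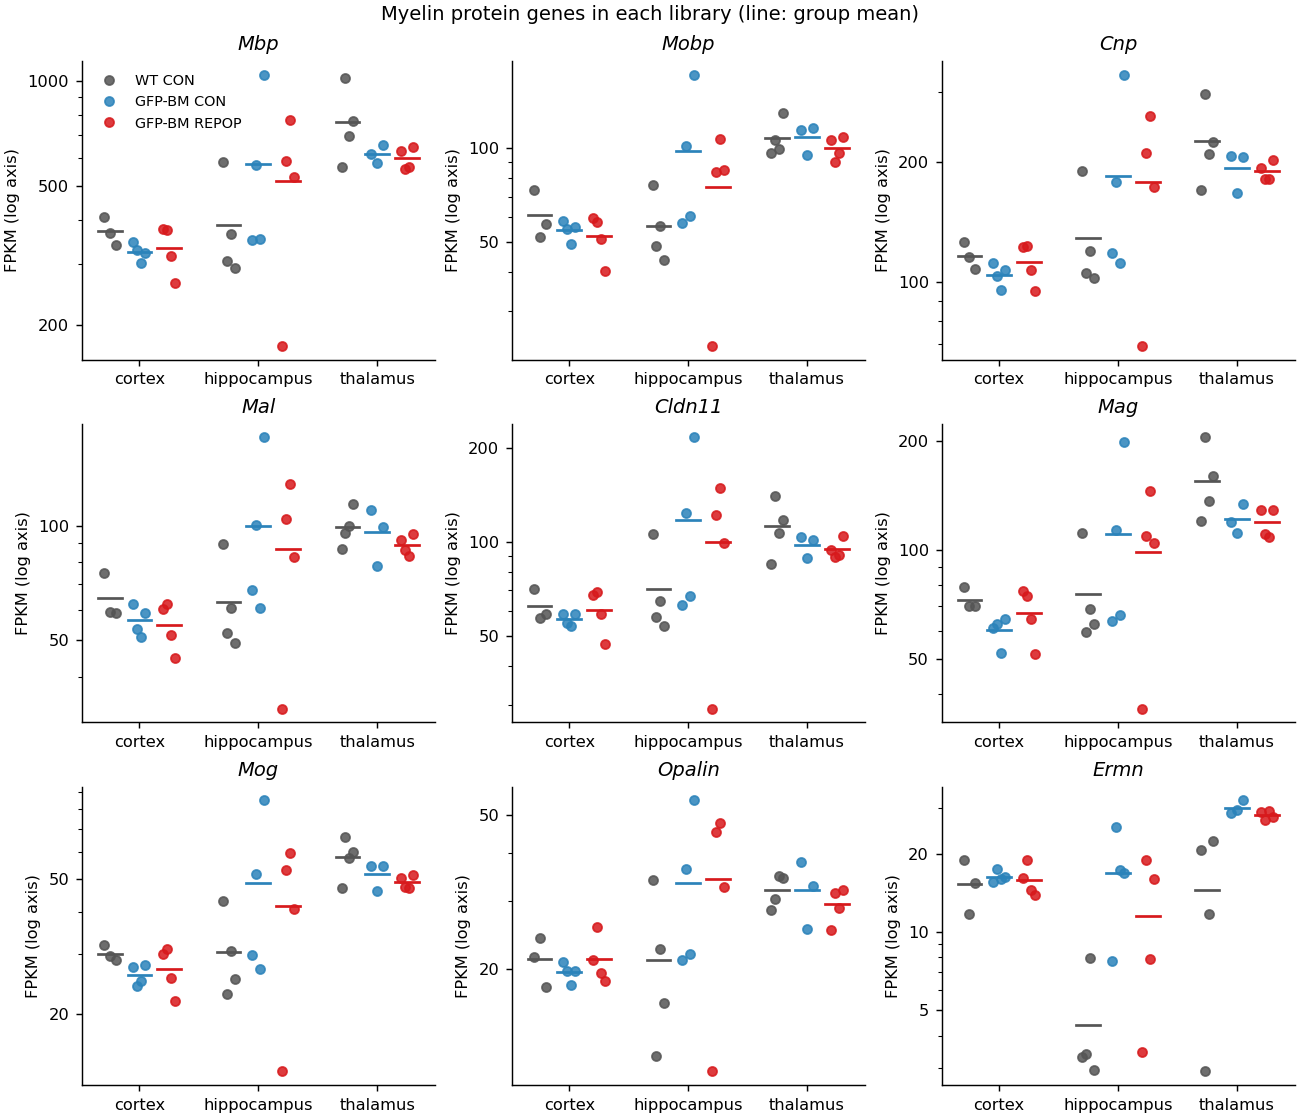
FPKM of each of the 9 genes in each library (log axis), by region and treatment; points are libraries and lines are group means. Thalamus points lie above cortex points for most genes, hippocampus points spread widely (174.86 to 1040.2 FPKM for *Mbp*), and *Ermn* alone is low in WT CON hippocampus and in 1 WT CON thalamus library.

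Thalamus against cortex was compared first, within each treatment, in limma on log2(FPKM + 0.1) with all 34 libraries and the animal as a random block. In WT CON mice 4 of the 9 genes passed an adjusted p of 0.05, all higher in thalamus, beside 30.0% of all genes tested in either direction. *Mag*, which encodes the adhesion glycoprotein of the membrane facing the axon, was 78.9, 70.2 and 70.0 FPKM in cortex and 121, 204, 136 and 160 in thalamus (log2 fold change 1.06, SE 0.34, limma adjusted p = 0.021). *Mbp* (1.01, SE 0.35, limma adjusted p = 0.031), *Cnp* (0.93, SE 0.32, limma adjusted p = 0.032) and *Mog*, the immunoglobulin-like protein of the outermost myelin surface (0.93, SE 0.34, limma adjusted p = 0.042), passed with it. *Mobp*, *Cldn11*, *Mal* and *Opalin* differed by 0.83, 0.84, 0.63 and 0.60 on the same log2 scale and did not pass. Leaving out 1 library moved the count of 4 to 0 without WT CON cortex replicate 2 or 3 or thalamus replicate 2, to 1 without cortex replicate 1, and to 7 without GFP-BM REPOP hippocampus replicate 1, which enters through the shared spread. For 8 of the 9 genes every WT CON thalamus library lay above every cortex library, beside 18.5% of all genes. *Ermn* overlapped, with a log2 difference of -0.41.

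The irradiated groups gave differences of like size with fewer calls. In GFP-BM CON mice all 9 genes had every thalamus library above every cortex library, beside 19.6% of all genes, with log2 differences of 0.69 to 1.03. 1 of the 9 passed the test, *Mag* (1.03, SE 0.34, limma adjusted p = 0.042), a share near the 12.9% of all genes. In GFP-BM REPOP mice the thalamus libraries lay above the cortex libraries for 8 genes, beside 16.4% of all genes, and *Opalin* overlapped. *Mobp*, a small basic protein of compact myelin, was the 1 gene of 9 that passed there (14.8% of all genes). It was 59.8, 58.2, 51.2 and 40.3 FPKM in cortex and 106, 90.0, 96.5 and 109 in thalamus (log2 fold change 0.95, SE 0.32, limma adjusted p = 0.045). At an unadjusted p under 0.05 the counts were 6, 7 and 6 of 9 in the untreated, irradiated and repopulated mice, beside 44.1%, 25.2% and 27.1% of all genes. The count model voom, run on the recovered reads, called 6, 5 and 5, beside 37.2%, 15.6% and 15.5% of all genes. The single call of the irradiated mice was lost without any 1 of their own 7 cortex and thalamus libraries, that of the repopulated mice was lost in 19 of the 34 fits that left out 1 library, and both counts became 6 without GFP-BM REPOP hippocampus replicate 1 and 5 without GFP-BM CON hippocampus replicate 4. In the irradiated mice the count was also 4, 3 or 2 without GFP-BM REPOP hippocampus replicate 3, without GFP-BM CON hippocampus replicate 1, or without GFP-BM CON hippocampus replicate 3, GFP-BM REPOP hippocampus replicate 2 or WT CON hippocampus replicate 1. Fewer oligodendrocytes and less myelin RNA per oligodendrocyte cannot be told apart in these bulk libraries.

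Averaged over the 3 treatments, a comparison added after the data were seen, 8 of the 9 genes were higher in thalamus than in cortex, beside 43.3% of all genes called in either direction. The fold was 1.91 for *Mbp* (95% interval 1.45 to 2.53, limma adjusted p = 0.00034), 1.97 for *Mag* (1.5 to 2.58), 1.90 for *Mobp* (1.44 to 2.5) and for *Mog* (1.44 to 2.5), and 1.82 for *Cnp* (1.41 to 2.35). It was smaller for *Cldn11*, the claudin of the myelin tight junctions (1.70, 1.25 to 2.30), *Mal*, a proteolipid of lipid-rich membrane domains (1.63, 1.27 to 2.10), and *Opalin*, a transmembrane glycoprotein of oligodendrocytes (1.5, 1.13 to 2.01). *Ermn*, the cytoskeletal protein ermin of late oligodendrocytes, had a fold of 1.35 with an interval that included 1 (0.896 to 2.04). The median log2 difference of the 9 genes was 0.86 and that of all genes was -0.04. These 8 genes passed in each of the 34 fits that left out 1 library.

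The hippocampus gave differences that depended on its libraries. Against thalamus, 5 of 9 genes were lower in WT CON hippocampus (17.7% of all genes tested passed in either direction): thalamus exceeded hippocampus by 1.01 for *Mbp*, 0.95 for *Mog*, 1.06 for *Mag*, 0.96 for *Mobp* and 1.46 for *Ermn* on the log2 scale (limma adjusted p from 0.02 to 0.038). Leaving out 1 library gave 0 of 9 without WT CON hippocampus or thalamus replicate 4, 1 without hippocampus replicate 2, and 2 without hippocampus or thalamus replicate 3. In GFP-BM CON mice none of the 9 passed (14.3%), 0 had an unadjusted p under 0.05, and voom called 0. In GFP-BM REPOP mice 1 passed (34.3%), *Ermn*, at 1.55 (SE 0.48, limma adjusted p = 0.014), which was lost without GFP-BM REPOP hippocampus replicate 1. Without the 3 libraries low in hippocampus markers, 6 of 9 passed in WT CON and 0 in either irradiated group, and the 8 genes other than *Ermn* differed by -0.67 to 0.08 in GFP-BM REPOP. Averaged over treatments, 6 of 9 passed, all higher in thalamus (50.6% of all genes), with a fold of 1.47 for *Mbp* (95% interval 1.12 to 1.93) and 2.49 for *Ermn* (1.67 to 3.72). *Mal*, *Cldn11* and *Opalin* did not pass, at log2 differences of 0.32, 0.26 and 0.24. In that average, without the same 3 libraries, *Mag* (0.40), *Mobp* (0.43) and *Ermn* (1.17) still passed, while *Mbp*, *Mog* and *Cnp*, at 0.33, 0.29 and 0.22, no longer did. The *Ermn* values between thalamus and hippocampus are before the correction for GC content and length described with *Ermn*. The averaged value is the gap between its averaged thalamus and hippocampus differences from cortex, and that correction narrowed this gap. The corrected size between thalamus and hippocampus is not given here.

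Hippocampus against cortex showed 1 of 9 genes called in WT CON mice (36.9% of all genes), *Ermn*, whose 4 hippocampus values of 3.32, 3.41, 7.96 and 2.96 FPKM lay below the cortex values of 18.9, 11.7 and 15.5 (log2 fold change -1.86, SE 0.51, limma adjusted p = 0.0065). After the correction for GC content and length described with *Ermn*, this difference was -0.68 and no longer passed (limma adjusted p = 0.18). The other 8 genes differed by -0.13 to 0.13 there. In GFP-BM CON mice the 8 genes were 0.65 to 0.86 higher on the log2 scale in hippocampus. None of the 9 passed (smallest limma adjusted p = 0.08, beside 19.8% of all genes called), although 7 had an unadjusted p under 0.05, beside 34.5% of all genes. In GFP-BM REPOP mice the differences of the 8 were 0.33 to 0.52 and 0 of 9 passed (17.5% of all genes), with 0 at an unadjusted p under 0.05. voom called 0 in both irradiated groups. These counts rested on single libraries: without GFP-BM REPOP hippocampus replicate 1, 7 genes passed in GFP-BM CON and 8 in GFP-BM REPOP, and without GFP-BM CON hippocampus replicate 3 or 1, 5 or 2 passed in GFP-BM CON. Without the 3 libraries low in hippocampus markers, the 8 genes passed in both groups, at 0.65 to 0.86 in GFP-BM CON and 0.87 to 1.17 in GFP-BM REPOP, and *Ermn* alone passed in WT CON (-1.76). GFP-BM REPOP hippocampus then held only replicates 2 and 3, and the share of all genes called in these fits is not given here. Averaged over treatments 3 of 9 passed (57.3% of all genes): *Cnp* (0.44) and *Cldn11* (0.50) were higher and *Ermn* (-0.88, SE 0.28, limma adjusted p = 0.0094) was lower in hippocampus. The count ran from 1 to 9 when each library was left out. With the 3 libraries left out, the 8 genes other than *Ermn* were all higher in hippocampus than cortex, by 0.50 for *Mobp* to 0.75 for *Cldn11*, and all 8 passed. *Ermn* was at -0.73 there (limma adjusted p = 0.029), but the correction for GC content and length ended its averaged call over all libraries and turned its direction (0.10, limma adjusted p = 0.72). Over all 3 region pairs within treatments, 13 of 81 values passed, against 7 with the animal as a fixed block.

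**Figure D2:**
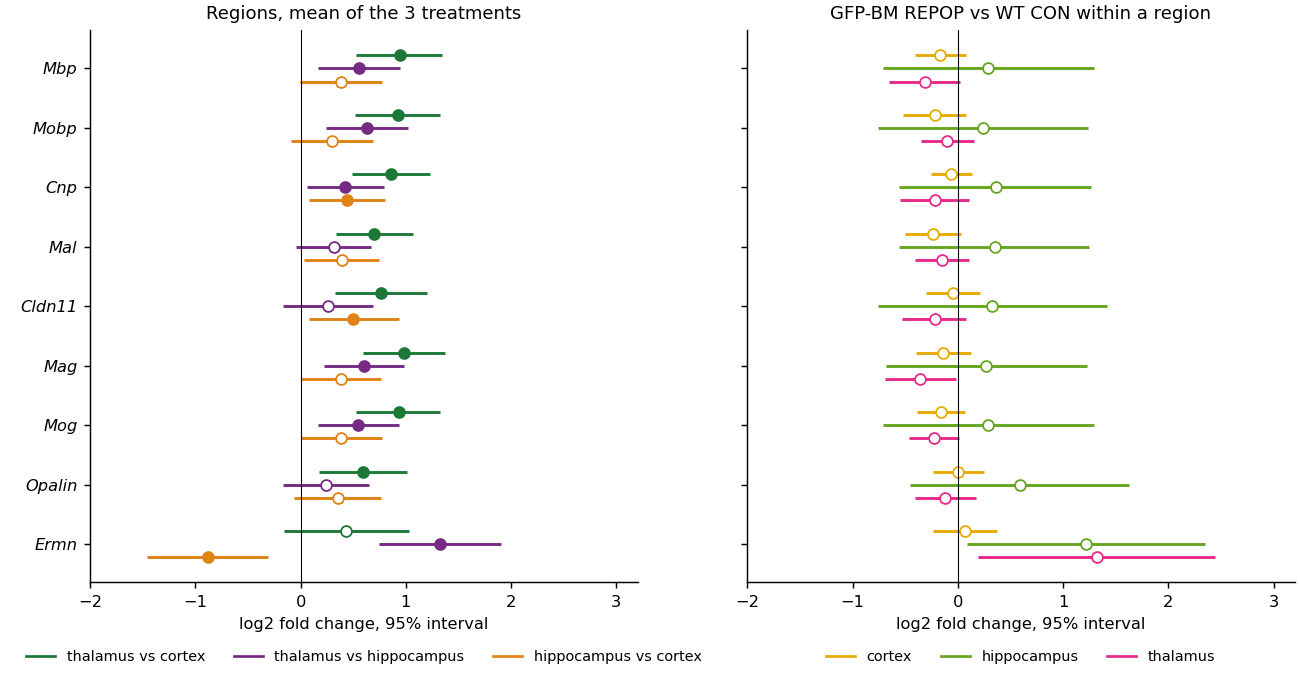
Log2 fold change of each gene with its 95% interval, filled where the limma adjusted p was under 0.05: on the left between regions, averaged over the 3 treatments; on the right GFP-BM REPOP against WT CON within each region. Thalamus against cortex is filled for 8 genes and open for *Ermn*; no treatment value is filled, and hippocampus intervals are the widest.

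Treatments were compared within each region, in 1 limma fit per region, to ask whether irradiation with marrow transplant (GFP-BM CON against WT CON), or repopulation after PLX3397 (GFP-BM REPOP against GFP-BM CON), changed myelin gene levels. GFP-BM REPOP against WT CON joins both steps, and comparisons with the same control share its libraries. None of the 9 genes passed in any of the 9 comparisons. In the cortex 0 of 9 passed in GFP-BM CON against WT CON (0.32% of all genes passed), in GFP-BM REPOP against WT CON (0.734%) and between both irradiated groups (0.0476%). In the hippocampus the shares of all genes were 0.0%, 0.0136% and 0.0272%, and in the thalamus 0.0%, 0.836% and 0.0%, in the same order. At an unadjusted p under 0.05 the member counts were 1, 0 and 0 in cortex, 1, 1 and 0 in hippocampus and 1, 2 and 0 in thalamus. The shares of all genes at that p were 16.0%, 14.3% and 4.27% in cortex, 23.9%, 9.67% and 11.7% in hippocampus and 20.7%, 25% and 0.945% in thalamus. voom on the recovered reads called 0 members in each comparison.

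The cortex set the tightest limits. *Mag* was 78.9, 70.2 and 70.0 FPKM in WT CON and 60.9, 62.7, 52.2 and 64.5 in GFP-BM CON, so that the groups did not overlap (log2 fold change -0.28, SE 0.12, limma adjusted p = 0.28). *Mog* was 31.8, 29.6 and 28.9 in WT CON and 27.4, 24.2, 25 and 27.8 in GFP-BM CON, again without overlap (-0.21, limma adjusted p = 0.38). No other member was free of overlap there. The share of all genes without overlap is not given here, and 16.0% of all genes had an unadjusted limma p under 0.05 in this comparison. In GFP-BM REPOP cortex both genes overlapped WT CON, with *Mag* at 77.1, 74.8, 64.4 and 51.7. For the 8 genes other than *Ermn*, the differences between GFP-BM CON and WT CON cortex lay between -0.28 and -0.10 on the log2 scale, and their 95% intervals between -0.55 and 0.16. For GFP-BM REPOP against WT CON they lay between -0.24 and 0.00 (intervals -0.52 to 0.25), and for GFP-BM REPOP against GFP-BM CON between -0.08 and 0.14 (intervals -0.36 to 0.39).

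In the thalamus, *Mag* was 121, 204, 136 and 160 FPKM in WT CON, 120, 111 and 134 in GFP-BM CON, and 129, 111, 109 and 129 in GFP-BM REPOP. The WT CON values reached higher but the groups overlapped (GFP-BM REPOP against WT CON -0.36, SE 0.15, limma adjusted p = 0.19). *Cldn11* was 84.7, 140, 106 and 117 in WT CON and 93.9, 89.6, 90.6 and 105 in GFP-BM REPOP. *Opalin* was 28.4, 30.3, 34.8 and 34.4 in WT CON, 37.9, 25.4 and 32.8 in GFP-BM CON, and 25.2, 31.6, 28.9 and 32.0 in GFP-BM REPOP. The 8 genes differed by -0.36 to -0.10 between GFP-BM REPOP and WT CON (intervals -0.69 to 0.17) and by -0.11 to -0.02 between the irradiated groups (intervals -0.43 to 0.33). Leaving out WT CON thalamus replicate 1 brought *Mog*, at -0.32, past the threshold in GFP-BM REPOP against WT CON (limma adjusted p = 0.045).

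In the hippocampus the same genes could not be read as closely. *Mog* was 43.1, 22.9, 30.6 and 25.4 FPKM in WT CON, 29.8, 51.6, 27.2 and 84.9 in GFP-BM CON, and 13.6, 52.9, 59.3 and 40.6 in GFP-BM REPOP. *Cldn11* was 106, 57.4, 64.5 and 53.7 in WT CON, 62.7, 124, 67.0 and 216 in GFP-BM CON, and 29.2, 122, 149 and 99.4 in GFP-BM REPOP. In both irradiated groups some libraries lay within or below the WT CON range and others above it. Differences of the 8 genes were 0.42 to 0.68 in GFP-BM CON against WT CON, with SE of 0.41 to 0.50 and intervals from -0.52 to 1.70, against SE of 0.08 to 0.14 in the cortex. For GFP-BM REPOP against WT CON they were 0.24 to 0.59 (intervals -0.76 to 1.63) and for GFP-BM REPOP against GFP-BM CON -0.44 to -0.06 (intervals -1.44 to 0.97). Without the 3 libraries low in hippocampus markers these 3 ranges were 0.33 to 0.63, 0.69 to 1.00 and 0.11 to 0.58, the last of the opposite sign, and no member passed.

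Whether the treatment differences themselves differed between regions was tested in the fit over all libraries. None of the 9 genes passed for any treatment pair or region pair. For GFP-BM CON against WT CON, 0.0% of all genes passed in thalamus against cortex, 0.0% in thalamus against hippocampus and 0.0% in hippocampus against cortex. For GFP-BM REPOP against WT CON the shares were 0.0%, 0.034% and 0.034%, and for GFP-BM REPOP against GFP-BM CON 0.0%, 0.0272% and 0.177%. 1 member value had an unadjusted p under 0.05, *Ermn* in GFP-BM CON against WT CON, hippocampus minus cortex (1.79, SE 0.70, limma adjusted p = 0.49), and voom called 0. The intervals were wide. The 8 other genes lay between -0.08 and 0.16 for thalamus minus cortex in GFP-BM CON against WT CON, with intervals from -1.14 to 1.17. For the same treatments they lay between -0.78 and -0.61 for thalamus minus hippocampus (intervals -1.83 to 0.36) and between 0.57 and 0.82 for hippocampus minus cortex (intervals -0.33 to 1.79), all of 1 sign in each. Without the 3 libraries low in hippocampus markers these were -0.70 to -0.42 and 0.49 to 0.77, and still none of the 9 passed for any pair.

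Set side by side, region accounted for far more of the spread between libraries than the treatment effect averaged over regions in 8 of the 9 genes. Of the sum of squares of log2(FPKM + 0.1) over the 34 libraries, region took 44.0% for *Mbp*, 47.6% for *Mag*, 44.0% for *Cnp*, 43.9% for *Mog* and 42.5% for *Mobp*, and treatment took 0.1% (*Cnp*) to 3.0% (*Mobp*). The regional share was lower for *Mal* (34.1%), *Cldn11* (30.9%) and *Opalin* (21.1%), for which 55.7%, 61.1% and 66.6% lay between libraries of 1 group. That part was 49.1% for *Mbp*, 48.9% for *Mog*, 48.2% for *Mobp* and 50.1% for *Cnp*, each above the regional share, and 45.3% for *Mag*. The interaction, which holds treatment differences that vary by region, took 5.9% (*Cnp*) to 9.4% (*Opalin*) among the 8 genes. It was larger than the treatment share in each of them. *Ermn* had 28.9% by region and 25.4% by treatment. The median over the 9 genes was 42.5% by region and 0.7% by treatment, and over all genes tested 32.9% and 9.0%. The median interaction was 6.9% and 7.2%, and the median part within groups 49.1% and 45.6%, in the same order. These shares are a description with no test.

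Libraries that were high in 1 member were high in the others. Over the 34 libraries, which share depth, dissection and scaling, each of the 8 genes correlated with the mean of the other 8 members at r of 0.91 (*Opalin*) to 0.98 (*Mobp*), and at 0.93 to 0.98 after the mean of each group was taken away. *Ermn* correlated at 0.34. Some ratios between members were steadier than levels and others were not. The ratio of *Mbp* to *Mog* had a median of 12.4 in cortex (11.6 to 13.6), 12.6 in hippocampus (11.1 to 13.6) and 12.1 in thalamus (11.4 to 15.4). The ratio of *Mag* to *Opalin* moved more, from a median of 3.16 in cortex (2.78 to 3.88) to 4.08 in thalamus (3.15 to 6.74), and within the thalamus it spread more widely than either gene. The ratio of *Mbp* to *Ermn* in thalamus ran from 19.4 to 349.

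**Figure D3:**
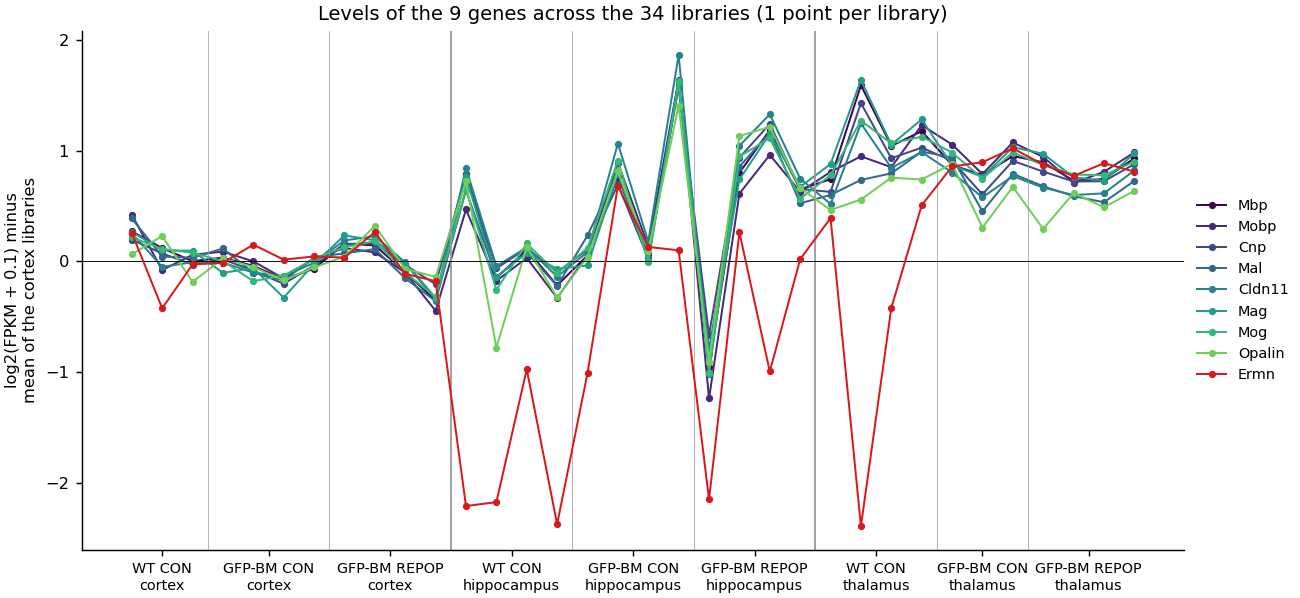
Level of each gene in each of the 34 libraries, as log2(FPKM + 0.1) minus its own mean over the cortex libraries, with libraries in order of region and treatment and *Ermn* in red. The lines of 8 genes run together through the highs and lows of the hippocampus. *Ermn* falls away in WT CON hippocampus, in WT CON thalamus replicates 2 and 3, and in some irradiated hippocampus libraries.

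The same course was seen in other oligodendrocyte genes. The mean log2(FPKM + 0.1) of 24 mature oligodendrocyte genes, none of them a member, was 3.61 in WT CON cortex, 3.50 in GFP-BM CON cortex and 3.57 in GFP-BM REPOP cortex, and 4.25, 4.31 and 4.30 in the thalamus of the same treatments. In the hippocampus it was 3.34, 4.02 and 3.79, with single libraries from 2.77 to 4.85. The 8 genes other than *Ermn* correlated with this level at 0.88 to 0.97 over the 34 libraries, and *Ermn* at 0.59. With the level as a covariate, the thalamus-against-cortex differences averaged over treatments lay between -0.25 and 0.16 for the 8 genes, in place of 0.59 to 0.98, and none of the 9 passed. *Ermn* stood at -0.30. Averaged thalamus against hippocampus, under the covariate, passed in the opposite direction for *Mal* (-0.29, limma adjusted p = 0.0062), *Cldn11* (-0.47, limma adjusted p = 0.00039) and *Opalin* (-0.42, limma adjusted p = 0.0055). Under the same covariate the GFP-BM CON against WT CON differences of the 8 genes in the hippocampus lay between -0.34 and -0.13, in place of 0.42 to 0.68. Of all genes, those most like the mean of the standardized members over the 34 libraries were *Fa2h* (r = 0.982), *Tmem88b* (0.974), *Bcas1* (0.970), *Adamts4* (0.966) and *Tmem125* (0.966). After group means were taken away they were *Bcas1* (0.976), *Fa2h* (0.973), *Tmem88b* (0.968), *Pllp* (0.961) and *Hapln2* (0.959).

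*Ermn* departed from the other members. In the cortex it was 18.9, 11.7 and 15.5 FPKM in WT CON, 15.6, 17.5, 15.9 and 16.3 in GFP-BM CON, and 16.1, 19.0, 14.6 and 13.9 in GFP-BM REPOP. In the hippocampus it was 3.32, 3.41, 7.96 and 2.96 in WT CON, 7.77, 25.4, 17.3 and 16.9 in GFP-BM CON, and 3.47, 18.9, 7.85 and 16.0 in GFP-BM REPOP. In the thalamus it was 20.7, 2.92, 11.7 and 22.4 in WT CON, 28.6, 29.4 and 32.1 in GFP-BM CON, and 29.0, 27.0, 29.2 and 27.7 in GFP-BM REPOP. The cortex groups overlapped, and the WT CON hippocampus libraries were low, replicate 3 less so than the others. Both irradiated thalamus groups lay above every WT CON library, and the share of all genes without overlap there is not given here. Every WT CON thalamus library also had a higher level of GC-rich against GC-poor genes than the irradiated ones, as given below.

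None of the treatment differences of *Ermn* passed. GFP-BM CON exceeded WT CON by 1.91 in hippocampus (SE 0.52, limma adjusted p = 0.078) and by 1.40 in thalamus (SE 0.55, limma adjusted p = 0.21) on the log2 scale. GFP-BM REPOP exceeded WT CON by 1.22 in hippocampus (SE 0.52, limma adjusted p = 0.49) and by 1.32 in thalamus (SE 0.51, limma adjusted p = 0.17). Of these, the hippocampus difference of GFP-BM CON was 2.23 and passed without WT CON hippocampus replicate 3 (limma adjusted p = 0.042). Without the 3 libraries low in hippocampus markers the hippocampus differences of *Ermn* were 1.83 and 1.49 and did not pass. *Ermn* in GFP-BM REPOP minus GFP-BM CON was -0.05, -0.69 and -0.09 in cortex, hippocampus and thalamus, with no call.

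The transcript of *Ermn* is 38.0% GC, at percentile 2.0 of the genes tested, while the other 8 lie between 45.8% (*Opalin*) and 57.6% (*Mag*). The libraries in which it was low were among those in which GC-poor genes were low in general. The median log2 level of the 1388 genes richest in GC minus that of the 1388 poorest was 0.41 to 1.24 in cortex libraries and 0.45 to 0.94 in irradiated thalamus libraries. It was 1.75 to 3.39 in WT CON hippocampus, 1.46 to 2.6 in GFP-BM REPOP hippocampus and 0.71 to 2.08 in GFP-BM CON hippocampus. In WT CON thalamus it was 1.09 to 3.65, highest in replicate 2, the library where *Ermn* was 2.92 FPKM. Over the 34 libraries this measure correlated with *Ermn* at -0.82, and at -0.74 within groups. With the other 8 genes it correlated at 0.06 to 0.32, and within groups at 0.18 (*Opalin*) to 0.45 (*Cnp*). Once GC content and length were corrected for, library by library, *Ermn* differed between GFP-BM CON and WT CON by 1.00 in hippocampus (limma adjusted p = 0.22) and 0.22 in thalamus (limma adjusted p = 0.72). The share of its spread by treatment was then 5.3% in place of 25.4%. Its averaged thalamus-against-cortex difference was then 0.79 and passed (limma adjusted p = 0.004), so that all 9 members were then higher in thalamus. Its hippocampus-against-cortex difference changed sign, to 0.10 (limma adjusted p = 0.72).

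**Figure D4:**
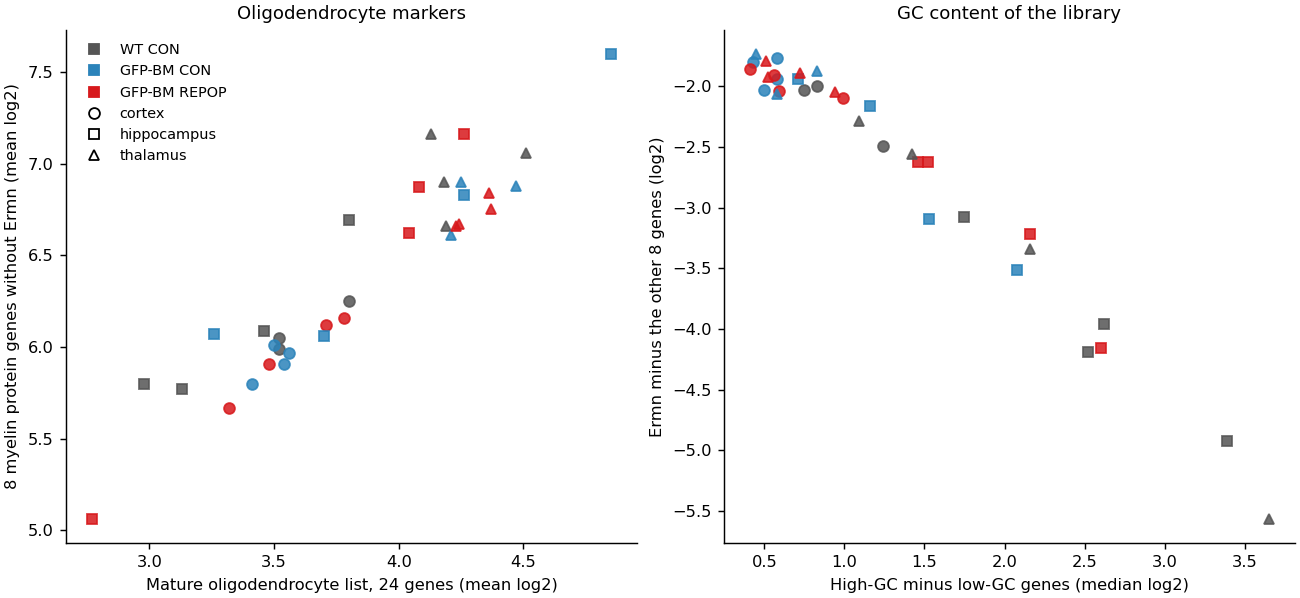
Each point is 1 of the 34 libraries: on the left the mean log2(FPKM + 0.1) of the 8 genes against that of 24 mature oligodendrocyte genes; on the right *Ermn* minus the mean of the other 8 against the log2 level of GC-rich minus GC-poor genes. The left points run along 1 line through all regions; on the right, *Ermn* lies lowest (-5.57) in the WT CON thalamus library with the highest GC measure (3.65).

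Related gene lists, drawn up by hand, showed where the regional pattern extended. No gene of the 5 lists passed in a treatment comparison. Averaged over treatments, 20 of the 24 mature oligodendrocyte genes were higher in thalamus than in cortex and 0 lower, with a median log2 difference of 0.79. *Plekhh1* (0.90, limma adjusted p = 5.1e-05) and *Hapln2*, a link protein of the nodes of Ranvier (0.96, limma adjusted p = 6.6e-05), led it. Of 10 oligodendrocyte transcription factors, 8 were higher and 0 lower, among them *Nkx2-2* (1.00) and *Olig1* (0.83), with a median of 0.72. Of 20 other myelin and paranode proteins, 15 were higher and 2 lower (median 0.54), and *Tppp*, a tubulin-binding protein, was lower (-0.48, limma adjusted p = 1.4e-05). Of 12 precursor and early differentiation genes, 7 were higher and 1 lower (median 0.39), with *Bcas1* (0.94) and *Cacng4* (0.72) the clearest. *Bcas1* was also among the genes most like the members, as given above. Myelin lipid synthesis genes did not move as 1 group. Of 20, 5 were higher and 6 lower (median -0.06), with the fatty acid elongase *Elovl1* higher (0.49, limma adjusted p = 9.8e-05). The lists overlap in part. Of all genes 43.3% were called in this comparison, in either direction, and their median was -0.04.

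Between thalamus and hippocampus, averaged over treatments, 18 mature oligodendrocyte, 8 precursor, 7 transcription factor, 10 myelin and paranode and 6 lipid genes were higher in thalamus, and 0, 0, 0, 1 and 2 were lower, beside 50.6% of all genes called in either direction. Between hippocampus and cortex, 6, 2, 6, 7 and 2 genes of the same lists were higher in hippocampus and 3, 4, 0, 5 and 9 lower, beside 57.3% of all genes. *Olig1* (0.53) and *Sox10* (0.52) were higher in hippocampus, and the precursor genes *Tnr* (-1.0) and *Sox6* (-0.97) were lower.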

How the data were processed

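RNA from flash frozen, microdissected tissue was sequenced in paired reads. Per the labels and the study's methods, the authors aligned reads to mm10 with STAR, counted them with featureCounts and deposited FPKM values (reads scaled by gene length and library depth, made with edgeR and limma) for 16389 genes in 34 libraries. RNA integrity was a condition of sequencing, and which library ran on which of the sequencers named is not given in the sources used here. The number in each library code was taken as the animal, so that replicates are separate mice and regions of 1 number share a mouse. The thalamus of 1 GFP-BM CON animal was not analysed here.

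The members and gene lists were chosen with earlier results of these data known. The text names the 9 members in every comparison, up to 2 genes with the smallest adjusted p from each related list, and the 5 genes most like the members. Some genes that this rule names are not reported here. Genes with FPKM of at least 1 in at least 3 libraries and of protein-coding, long non-coding or unknown type were tested (14710 of 15053 at that level; 343 of other types were left out). Values were taken as log2(FPKM + 0.1), so fold changes of low genes are understated, and fitted in limma 3.58.1 (R 4.3.3, trend) with two-sided, Benjamini-Hochberg adjusted p over all genes tested. Each region had its own fit of 3 treatments. Regional and between-region contrasts were fitted over the 34 libraries together, the animal entering as a random block (consensus correlation -0.038).

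The deposited FPKM values were whole multiples of 1 read for 100.0% of values (tolerance 0.01 reads), and voom was run on the reads so recovered. It called 0.306%, 0.714% and 0.082% of genes in the 3 cortex treatment comparisons, where the FPKM fit called 0.32%, 0.734% and 0.0476%. Of all values, 0.32% were 0. Replicates of a group differed by more than counting noise in every pair (chi-square per degree of freedom 4.02 to 185). Same-numbered replicates of different treatments did not deviate together: of 32 pairs, 5 correlated over 0.1 (median -0.082), so they were not paired. Of 32 pairs of regions from 1 animal, 19 did (median 0.117). GC content was known for 94.3% of genes tested. The scripts were tested on simulated data. Alternatives were other pseudocounts, filters, scalings, weights, a GC and length correction, voom, covariates, blocks and leaving out each library. Gene positions and promoter windows came from RefSeq, build GRCm38.p6. Figures were drawn with matplotlib 3.10.9.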

Additional observations from a re-analysis of the deposited data

Results flagged for a closer look

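Within groups of 4 libraries, 63 sets of member values were searched for a library far from the other 3, and 1 was found. *Ermn* in WT CON hippocampus replicate 3 was 7.96 FPKM, above 3.32, 3.41 and 2.96 in the other replicates, and its gap to the nearest of them was 0.909 of the range. Chance alone gives about 1 such group in 20. Its part in the treatment comparison is given with that comparison. The cause was not tested.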

How the results depend on the processing

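Other pseudocounts (1 and 0.01) and filters changed no member's call. Treatment differences stayed at 0 of 81 values called, except 1 with array quality weights, 1 with all 9 groups in 1 fit (*Ermn*, GFP-BM CON against WT CON in hippocampus) and 0 to 1 when each library was left out. With the replicate number as a block 0 were called, and the block changed no treatment call. Region effects on treatment differences stayed at 0, except 3 with array quality weights (leave-one-out 0 to 0).

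Regional differences within treatments numbered 13 of 81, and became 26 with quantile normalization, 41 with array quality weights, 22 with voom, 7 with the mature oligodendrocyte level as covariate, 7 with the animal as a fixed replicate block, 14 with no replicate block, 42 without the 3 hippocampus libraries and 25 with only the libraries of the 2 regions compared. The last of these and the one before it were added with the data in view. Leaving out each library gave 7 to 42: 42 without GFP-BM REPOP hippocampus replicate 1, 23 and 20 without GFP-BM CON hippocampus replicates 4 and 3, 8 without WT CON cortex replicate 2 or 3, hippocampus replicate 4 or thalamus replicate 2 or 3, and 7 without thalamus replicate 4. Averaged over treatments 17 of 27 passed, 11 with the covariate, and 14 to 22 when each library was left out. The regional share of spread (median 42.5%) was 39.8% after GC and length correction. voom moved the median of all genes in WT CON thalamus against cortex from -0.01 to 0.11, and no called member changed sign under quantile, median-ratio or voom scaling.

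Of the values that passed with or without the alternative, 17 changed sign. Values that passed in neither fit also changed sign, among them the 8 genes in GFP-BM CON against WT CON hippocampus and averaged *Ermn* in thalamus against cortex with the covariate. *Ermn* in hippocampus against cortex (averaged) became 0.10 after GC and length correction. With the covariate, thalamus against hippocampus became -0.03, -0.13 and -0.08 in WT CON for *Mbp*, *Mobp* and *Mog*, and -0.34 and -0.50 in GFP-BM REPOP for *Mal* and *Cldn11*, which passed (limma adjusted p = 0.03 and 0.0087). Averaged, it became -0.10, -0.06, -0.17, -0.29, -0.47, -0.04, -0.11 and -0.42 for *Mbp*, *Mobp*, *Cnp*, *Mal*, *Cldn11*, *Mag*, *Mog* and *Opalin*, of which *Mal*, *Cldn11* and *Opalin* passed. Thalamus against cortex became -0.06, -0.16 and -0.25 for *Mal*, *Cldn11* and *Opalin*. The covariate itself differed between regions. The cause of the other changes was not tested.

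Limits: with 3 or 4 libraries a group, hippocampus intervals allow changes of over 1 on the log2 scale in either direction for some genes. In addition, 3 hippocampus libraries were low in hippocampus markers, and striatum markers were higher in most WT CON than in GFP-BM CON hippocampus libraries. GC-poor genes were lower in WT CON hippocampus and thalamus libraries and in some irradiated hippocampus libraries, a difference that moved with *Ermn*. Over all genes, the share called also depended on the fit: GFP-BM CON against WT CON in hippocampus gave 0.0%, against 19.4% with all 9 groups in 1 fit and 18% with array quality weights, and GFP-BM REPOP against WT CON in thalamus gave 0.836%, against 0.075% (replicate number as a block) to 13.3% (all 9 groups in 1 fit).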
